A study of Mus musculus with 12 samples.

Results

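The genes for semaphorins, ephrins, Slits, netrins and their receptors, which steer growing axons, were followed in the forebrain of juvenile and adult mice with and without an intact Shank3 gene. The members were the protein-coding genes of the families Sema3 to Sema7, Plxna to Plxnd, Nrp1 and Nrp2, Epha, Ephb, Efna, Efnb, Slit1 to Slit3, Robo1 to Robo4, netrins and netrin-Gs, Dcc and Unc5. All 71 annotated members were among the 19268 genes of the table, 37 as ligands and 34 as receptors. By system they comprised 31 semaphorin, plexin and neuropilin genes, 22 ephrin and Eph receptor genes, 7 Slit and Robo genes, and 11 genes of the netrins, the netrin-Gs, Dcc and the Unc5 receptors. None was listed at 0 in any library.

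RNA came from forebrain without the olfactory bulb. All mice were C57BL/6J males. Wild-type (WT) mice were compared with knock-outs (KO), which were homozygous for a loss of exons 14 to 16 of Shank3, at postnatal day 25 (P25, juvenile) or 60 (P60, adult). Each of the groups P25-WT, P25-KO, P60-WT and P60-KO had 3 libraries. A library came from its own mouse, so the p-values measure the spread between mice. No other allele or treatment was named, and pups of mixed genotypes were reared together.

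Semaphorins signal through plexins, with neuropilins as co-receptors for most of the secreted class 3 members, and they repel or attract axons. Ephrins are bound to membranes and signal at cell contacts through Eph receptor tyrosine kinases, and the ephrin-bearing cell can respond as well. Slits act through Robo receptors, mainly as repellents, while netrins attract axons through Dcc and repel them through Unc5 receptors. In the postnatal forebrain many of these genes stay active and take part in synapse formation, spine turnover and the biology of oligodendrocytes, the myelin-forming cells.

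Values are estimated counts that the authors normalized per gene and library, and depth is unknown because whole reads could not be recovered. Library totals lay between 30568259 and 32348554 normalized counts. Pearson correlations across genes were 0.982 to 0.990 within groups and 0.971 to 0.990 between groups. Shank3, the targeted gene, was at 48.0% of the WT mean in KO libraries at P25 and at 50.2% at P60, with no overlap between the genotypes at either age. The summed level of 6 hindbrain and cerebellar markers was 119 to 1573, with P60-WT replicate 2 the highest. Libraries did not take the extremes of the guidance genes evenly. P25-WT replicate 2 had the lowest of the 6 P25 values in 41 of the 71 members and the highest in 3, whereas over all genes it was the lowest in 29.4% and the highest in 30.9%. P25-WT replicate 3 was the highest at P25 in 28 members (20.5% of all genes), and P60-KO replicate 1 was the lowest at P60 in 21 (16.5% of all genes). The counts for age are therefore also given without P25-WT replicate 2.

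Start-site sequence is shown for 4 members whose age differences are described below, Ephb1 and Sema6b, which were lower at P60, and Plxnc1 and Epha6, which were higher. Each line gives the 250 bases before the RefSeq start in mouse assembly GRCm38.p6, 5′ to 3′ in the direction of transcription, at chr9:102354694-102354943, minus strand for Ephb1, chr17:56140344-56140593, minus strand for Sema6b, chr10:94944846-94945095, minus strand for Plxnc1 and chr16:60605532-60605781, minus strand for Epha6. For Sema6b, which has 2 RefSeq starts, the one nearest to the GENCODE gene start is shown. Capitals mark the GC box GGGCGG or its reverse complement CCGCCC.
Ephb1: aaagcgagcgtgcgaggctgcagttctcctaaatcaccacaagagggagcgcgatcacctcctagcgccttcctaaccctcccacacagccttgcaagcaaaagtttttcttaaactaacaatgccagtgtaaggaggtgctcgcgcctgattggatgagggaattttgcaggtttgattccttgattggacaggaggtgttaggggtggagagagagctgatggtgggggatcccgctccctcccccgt
Sema6b: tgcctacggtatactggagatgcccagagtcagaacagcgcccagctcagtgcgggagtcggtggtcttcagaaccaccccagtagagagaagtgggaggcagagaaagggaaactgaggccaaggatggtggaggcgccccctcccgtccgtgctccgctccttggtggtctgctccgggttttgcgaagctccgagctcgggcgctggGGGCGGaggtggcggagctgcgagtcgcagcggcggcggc
Plxnc1: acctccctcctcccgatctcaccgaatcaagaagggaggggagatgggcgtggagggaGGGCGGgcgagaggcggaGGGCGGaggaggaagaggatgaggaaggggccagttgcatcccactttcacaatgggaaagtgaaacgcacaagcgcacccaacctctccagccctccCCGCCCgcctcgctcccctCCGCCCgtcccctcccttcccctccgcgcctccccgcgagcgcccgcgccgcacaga
Epha6: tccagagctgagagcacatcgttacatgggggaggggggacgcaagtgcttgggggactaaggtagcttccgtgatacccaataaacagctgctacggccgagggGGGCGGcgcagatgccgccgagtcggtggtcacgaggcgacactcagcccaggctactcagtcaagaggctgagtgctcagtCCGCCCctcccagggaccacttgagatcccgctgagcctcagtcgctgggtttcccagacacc

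The Ephb1 window held no GC box, that of Sema6b held 1, that of Epha6 held 2 and that of Plxnc1 held 4. None of these windows held the TATA box TATAAA or the SOX core ACAAAG on either strand, and the E-box CANNTG occurred 1 time in Plxnc1 and 4 times in Epha6. GC content was 54.0% in Ephb1, 66.0% in Sema6b (59.2% at its other start), 68.8% in Plxnc1 and 62.8% in Epha6. Over the 61 members with a RefSeq start (77 starts), 70.1% of the windows held a GC box, against 32.7% of all 32851 starts of the assembly. For the 14995 starts of protein-coding genes with a mean of at least 10 in these libraries, which are more like the members, the share was 55.1%. TATAAA stood in 2.60% of the members' windows, 12.4% of all and 6.73% of those of the protein-coding genes. ACAAAG stood in 9.09%, 16.5% and 12.3%, and CANNTG in 48.1%, 66.2% and 58.7%. The median GC content was 64.4% for the members, 52.4% for all starts and 59.2% for the protein-coding genes, and single starts of members ranged from 40.8% to 84.0%. A match describes the letters only.

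Levels were compared between genes per kilobase (kb) of the longest protein-coding transcript, as the mean and SD of all 12 libraries. They spanned from 5.95 in Epha1 to 1512 in Sema7a. The highest members were Sema7a (1512 ± 67.8 normalized counts per kb), a lipid-anchored semaphorin that binds Plxnc1, Sema6b (1273 ± 229.5), a transmembrane ligand of Plxna4, and Efnb3 (1194 ± 144), an ephrin that acts at the midline through Epha4. Unc5a (965 ± 66.0), Epha4 (925 ± 65.3) and Ephb6 (922 ± 102) followed, and these 3 receptors lay within 1 SD of one another. All these means pool both ages, and the order at a single age can differ. At P25, for example, Sema4d lay above Epha4 and Ephb6 per kb. Epha1 (5.95 ± 1.63), Efna4 (6.45 ± 2.72) and Epha2 (12.8 ± 1.96) were the lowest, and Epha1 and Efna4 differed by less than their SD.

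The members with the highest level in their family follow. Among the secreted class 3 semaphorins this was Sema3f at 157 ± 23.6 per kb, with Sema3e at 152 ± 13.8 inside that spread. Taken by age, Sema3f led at P25 and Sema3e at P60. Class 4 was led by Sema4d (795 ± 292), although Sema4a was above it at P60, class 5 by Sema5a (224 ± 22.0) and class 6 by Sema6b. Plxnd1 (583 ± 83.9) and Plxna1 (560.4 ± 58.8) were the highest plexins and did not differ beyond their spread. Plxnd1 was the higher of them at P25 and Plxna1 at P60. Nrp2 was at 241 ± 23.7 and Nrp1 at 225 ± 24.1. Epha4 led EphA, Ephb6 led EphB, Efna3 (557 ± 38.9) led ephrin-A and Efnb3 led ephrin-B. Slit1 (591 ± 56.9) exceeded Slit3 (292 ± 25.9) and Slit2 (133 ± 17.2), and Robo2 (410.1 ± 26.8) led its receptors. The 4 netrins were all low, between 56.6 in Ntn5 and 81.7 in Ntn3, and Ntng2 (532 ± 85.9) and Unc5a were far above them. With the length of all exons combined, Sema3e moved above Sema3f, which became number 3 of its family, and Plxna1 moved above Plxnd1, which became number 2. With this length the levels were lower by a median of 1.27 times, and by over 1.5 times in 20 members. Nrp1 moved most, 2.72 times, to 82.5 per kb against 137 for Nrp2, and the gap between these neuropilins was then larger. Sema4d came to 464 and Ntng2 to 251.

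**Figure D1:**
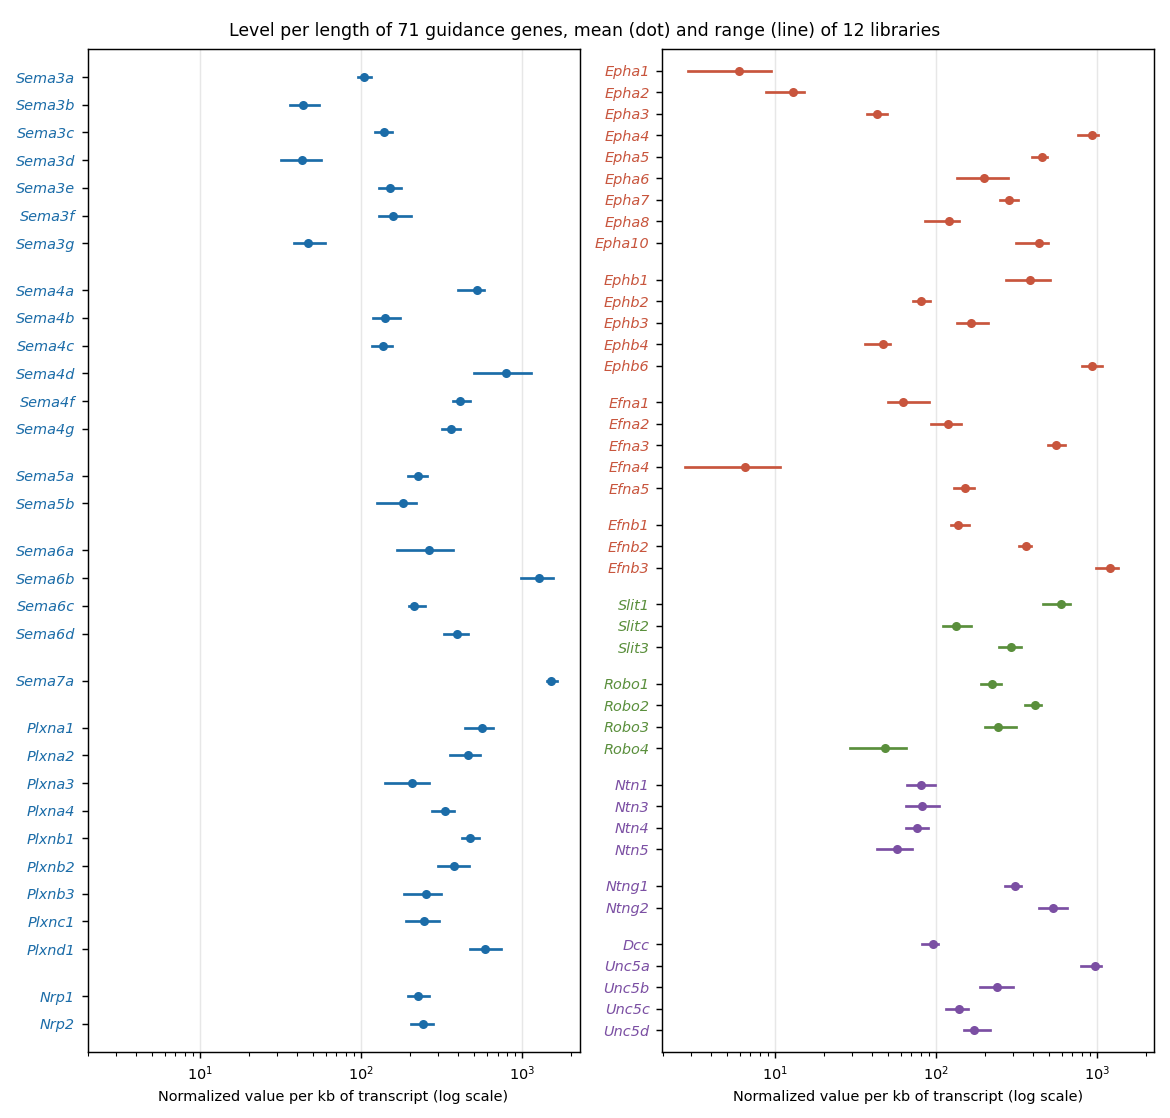
Normalized value per kb of the longest protein-coding transcript (log scale) for the 71 guidance genes, grouped by family and coloured by system, with dots for the mean and lines for the range of the 12 libraries. Sema7a, Sema6b and Efnb3 sit at the top, near or above 1194 per kb, and Epha1 and Efna4 at the bottom, near 6.

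Summed per kb over its members, class 4 came to 2669 ± 185 in P25-WT (SD, n = 3), 2719 ± 73.2 in P25-KO, 2008 ± 23.3 in P60-WT and 2038 ± 45.9 in P60-KO. Class 6 came to 2421 ± 51.1, 2403 ± 99.2, 1870.2 ± 20.9 and 1861 ± 92.6 in the same order. The EphB receptors summed to 1786 ± 71.7, 1797 ± 24.1, 1401 ± 32.3 and 1409 ± 45.6. In these 3 families all P60 libraries lay below all P25 libraries, and in each the KO and WT sums of an age differed by less than the larger of their SDs. The EphA sum was 2326 ± 245 and 2378 ± 111 at P25 in WT and KO, and 2613 ± 48.8 and 2578 ± 125 at P60, with overlapping libraries. The plexin sum was 3424 ± 404 in P25-WT and 3495 ± 118 in P60-WT, and the Slit sum was 997 ± 156 and 1048 ± 86.1. No test was made on these sums, which weigh the abundant members most.

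The first question was how the guidance genes differed between the juvenile and the adult forebrain. Over both genotypes, 9 of the 71 members were higher at P60 and 20 were lower, each gene tested with 6 P60 against 6 P25 libraries and genotype as a covariate (limma, Benjamini-Hochberg adjusted p under 0.05 over all genes tested). The largest decreases were in the semaphorins Sema4d and Sema6a, at 48.2% and 52.1% of their P25 mean, and in the receptor Ephb1. The largest increases were in Epha6 and Plxnc1, both receptors. Ligands were called lower more often than higher (13 against 2 of 37, 35.1% and 5.41%, with 19.3% and 18.3% of all genes). Receptors were called 7 times in each direction (of 34, 20.6%), near the shares of all genes. After scaling to equal library totals the ligands counted 2 higher and 11 lower and the receptors 12 higher and 5 lower. All genes then counted 4038 higher and 2730 lower in place of 3219 and 3397. The balance of the receptors thus depends on the scaling, as that of all genes does.

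The share of members called, 40.8%, was close to that of all genes tested, 37.6%. For lower calls it was 28.2% against 19.3% of all genes, and for higher calls 12.7% against 18.3%. All P60 libraries lay outside the range of all P25 libraries in 16 members, 22.5%, against 19.6% of all genes, and 13 of these 16 were lower. The median log2 fold change was -0.065 over the members and 0.0037 over all genes tested. Without P25-WT replicate 2 the counts were 9 higher and 24 lower, against 18.4% and 19.9% of all genes. Ligands then counted 2 higher and 15 lower and receptors 7 and 9, and 21 members did not overlap between the ages (29.6%, against 22.6% of all genes), 18 of them lower. After scaling all libraries to equal totals 14 members were higher and 16 lower, while all genes went from 3219 higher and 3397 lower to 4038 and 2730. This scaling moved the median of all genes up by 0.042, so the split between the directions depends on the scaling in the members and in all genes alike. In such bulk tissue, fewer cells of a type and less RNA per cell cannot be told apart.

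**Figure D2:**
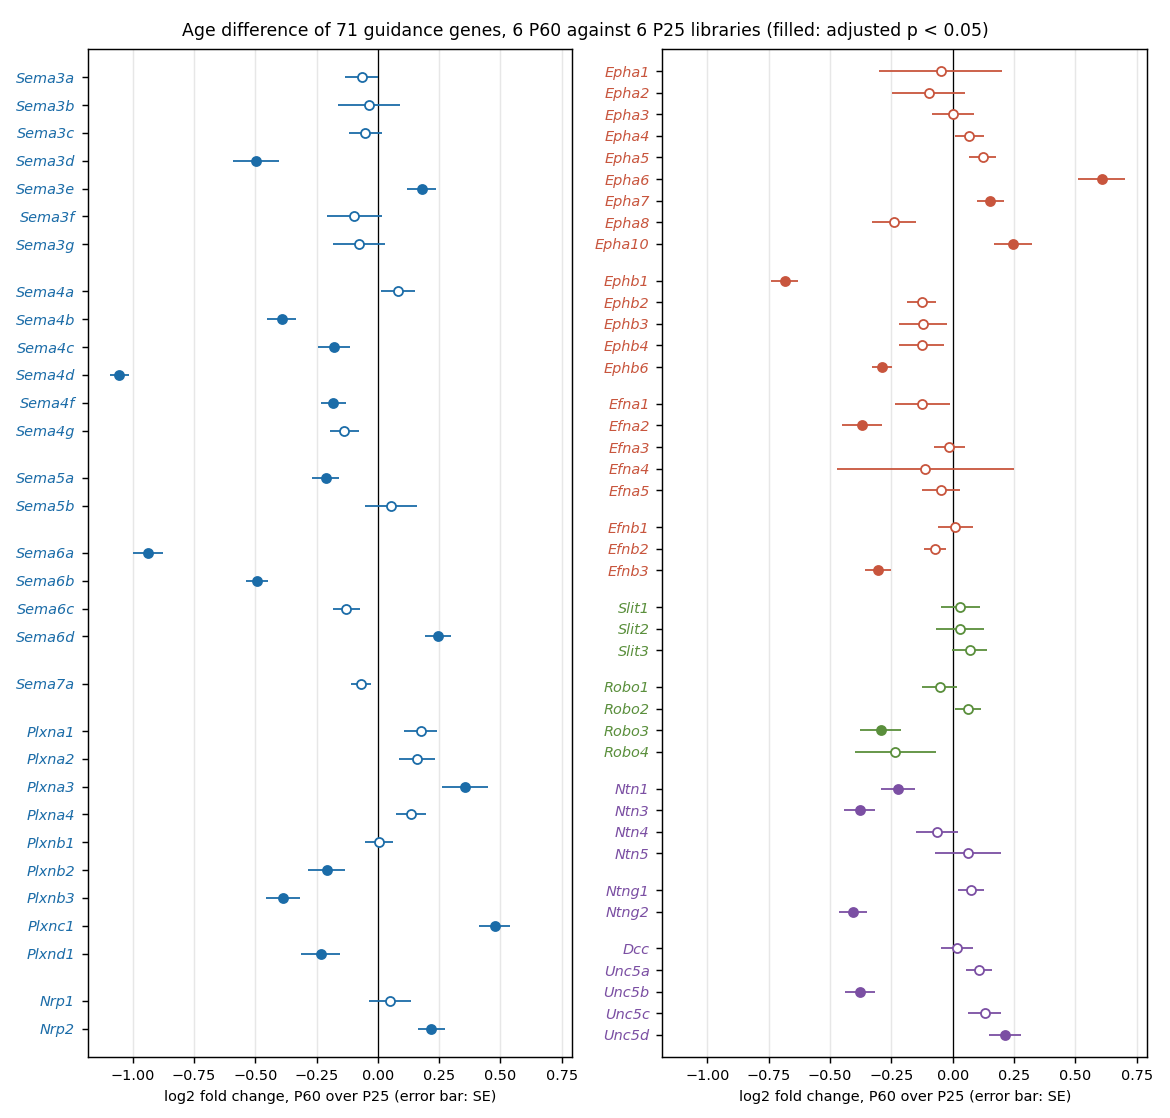
Log2 fold change of P60 over P25 for the 71 guidance genes (6 against 6 libraries, error bars SE, colours for the system), filled where adjusted p was under 0.05. Sema4d (-1.05), Sema6a (-0.94) and Ephb1 (-0.68) lie farthest left, and Epha6 (0.61) and Plxnc1 (0.48) farthest right.

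Sema4d (ENSMUSG00000021451, chromosome 13, 51685529 to 51793747) encodes a transmembrane semaphorin that binds Plxnb1 and is known from oligodendrocytes. Its normalized value was 4594 to 5059 (median 4821) at P25 and 2234 to 2408 (median 2314) at P60 (log2 fold change -1.05, SE 0.040, adjusted p = 4.87e-10). The P60 libraries of both genotypes clustered tightly at less than the lowest P25 value, with no overlap. Of the other class 4 members, Sema4b fell, with values of 556 to 684 (median 632) at P25 and 463 to 495 (median 475) at P60 (log2 fold change -0.39, SE 0.059, adjusted p = 0.000178), again without overlap. Sema4f and Sema4c had smaller decreases, with log2 fold changes of -0.18 (adjusted p = 0.0114) and -0.18 (adjusted p = 0.0430). Sema4a and Sema4g did not pass the test, at 0.081 (adjusted p = 0.380) and -0.14 (adjusted p = 0.0907). Of the 6 class 4 members 4 were lower and none was higher (19.3% and 18.3% of all genes). The lower count was 5 without P25-WT replicate 2 and 3 with equal library totals, and the call of Sema4c was lost in 9 of the 12 fits that left out 1 library.

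Class 6 semaphorins are transmembrane ligands of the A-type plexins. Sema6a (ENSMUSG00000019647) was 2076 to 2554 (median 2388) at P25 and 1135 to 1309 (median 1238) at P60 (log2 fold change -0.94, SE 0.061, adjusted p = 1.12e-07). Sema6b (ENSMUSG00000001227, chromosome 17, 56123085 to 56140343) was 5367 to 5798 (median 5567) at P25 and 3642 to 4370.0 (median 3919) at P60 (log2 fold change -0.49, SE 0.045, adjusted p = 2.72e-06). In both genes every P60 library was below every P25 library. Sema6d (ENSMUSG00000027200, chromosome 2, 124089969 to 124667770), which binds Plxna1, ran the other way, with values of 2108 to 2486 (median 2315) at P25 and 2566 to 2959 (median 2756) at P60 (log2 fold change 0.24, SE 0.052, adjusted p = 0.00233), also without overlap. Sema6c had a log2 fold change of -0.13 (adjusted p = 0.0782). The family thus moved in both directions.

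Among the class 3 semaphorins, which are secreted, 5 of 7 members did not pass the test, while 37.6% of all genes passed it. Sema3d was 260.0 to 354 (median 323) at P25 and 201 to 265 (median 217) at P60 (log2 fold change -0.50, SE 0.094, adjusted p = 0.00102), with the lowest P25 library inside the P60 range. Sema3e, a ligand of Plxnd1, was 877 to 1052 (median 970.2) at P25 and 1024 to 1214 (median 1102) at P60 (log2 fold change 0.18, SE 0.060, adjusted p = 0.0307), and its groups overlapped too. The other members, Sema3a, Sema3b, Sema3c, Sema3f and Sema3g, had log2 fold changes between -0.096 and -0.036. That of Sema3f was -0.17 without P25-WT replicate 2 and -0.026 without P25-WT replicate 3. Sema5a, a class 5 semaphorin that binds Plxnb3, fell, with values of 2272 to 2752 (median 2634) at P25 and 2109.9 to 2409.8 (median 2222) at P60 (log2 fold change -0.21, SE 0.055, adjusted p = 0.00787) with overlap, and Sema5b was at 0.053 (adjusted p = 0.725). Sema7a, the most abundant member of all, had values of 4714 to 5417 (median 5113) at P25 and 4689 to 5075 (median 4827) at P60 and a log2 fold change of -0.068 (adjusted p = 0.202). Without P25-WT replicate 2 that of Sema7a was -0.093 (adjusted p = 0.0394) and passed the test.

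The plexins, receptors that act on the actin cytoskeleton through small GTPases, moved in both directions. Plxnc1 (ENSMUSG00000074785, chromosome 10, 94790866 to 94944835), the receptor of Sema7a, was 1380.3 to 1721 (median 1454) at P25 and 1907 to 2217 (median 2092) at P60 (log2 fold change 0.48, SE 0.062, adjusted p = 5.92e-05), and all P60 libraries exceeded all P25 libraries. Plxna3, which transduces Sema3f signals, was 967 to 1574 (median 1249.8) at P25 and 1417 to 1822 (median 1578) at P60 (log2 fold change 0.35, SE 0.094, adjusted p = 0.00859), with overlap. All 4 A-type plexins had positive log2 fold changes, of which only that of Plxna3 passed the test. Plxna1 was at 0.17 (adjusted p = 0.0530), Plxna2 at 0.16 (adjusted p = 0.102) and Plxna4 at 0.13 (adjusted p = 0.0997). After scaling to equal library totals these 3 also passed, at 0.22 (adjusted p = 0.0206), 0.20 (adjusted p = 0.0461) and 0.18 (adjusted p = 0.0378), and the plexins then counted 5 higher and 1 lower in place of 2 and 3. All genes shifted the same way, from 3219 higher and 3397 lower to 4038 and 2730. Plxnb3, a receptor of Sema5a found in the oligodendrocyte lineage, fell, with values of 1537 to 1887 (median 1729.6) at P25 and 1102 to 1418 (median 1359.5) at P60 (log2 fold change -0.39, SE 0.068, adjusted p = 0.000615) without overlap. Plxnd1 and Plxnb2 were lower with log2 fold changes of -0.23 (adjusted p = 0.0323) and -0.21 (adjusted p = 0.0420), and Plxnb1, the receptor of Sema4d, was at 0.0052 (adjusted p = 0.954). Of the neuropilins, Nrp2 rose, with values of 1358 to 1654 (median 1483) at P25 and 1617 to 1879 (median 1757) at P60 (log2 fold change 0.22, SE 0.056, adjusted p = 0.00712) with overlap, while Nrp1 was at 0.049 (adjusted p = 0.682).

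**Figure D3:**
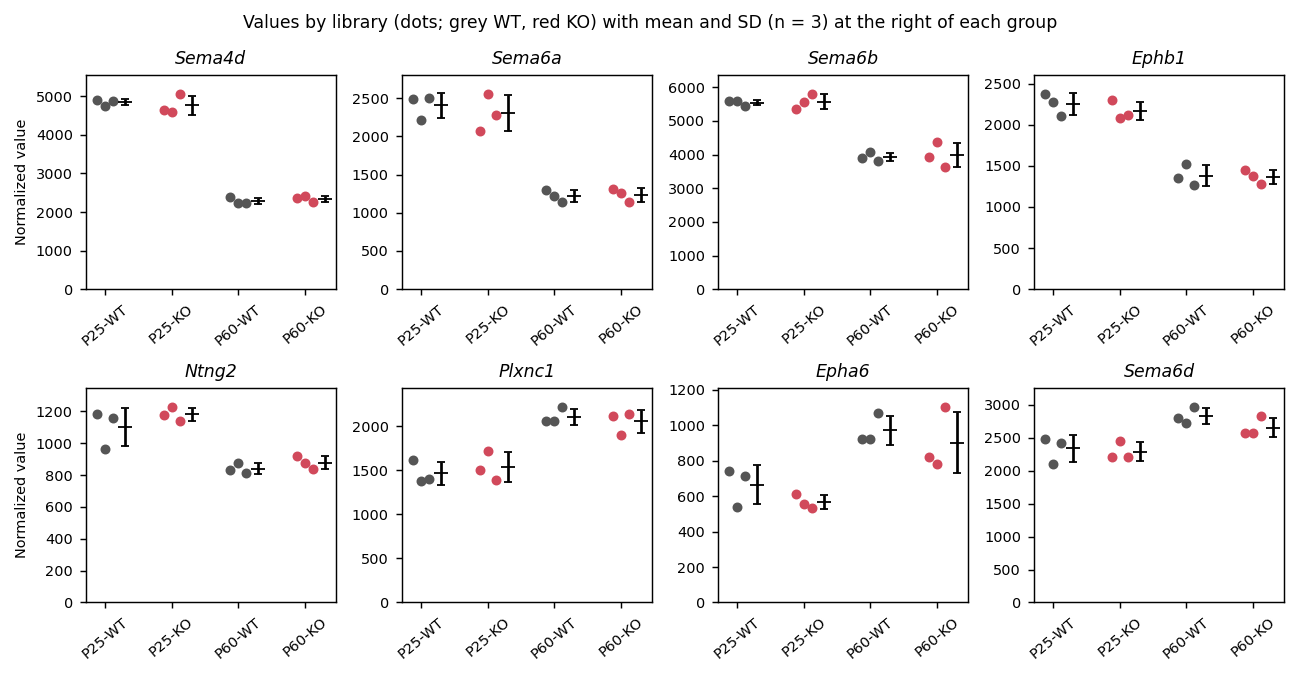
Normalized values of 8 guidance genes in each library (dots, grey for WT and red for KO), with the mean and SD of the 3 libraries at the right of each group. Sema4d, Sema6a, Sema6b, Ephb1 and Ntng2 are lower at P60, Plxnc1, Epha6 and Sema6d are higher, and the KO and WT dots of an age overlap in every panel.

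Of the 9 EphA genes 3 were higher at P60 and none was lower, and of the 5 EphB genes 2 were lower and none was higher, where all genes tested gave 18.3% higher and 19.3% lower. Without P25-WT replicate 2 the EphA genes counted 3 higher and 1 lower, and the EphB genes 3 lower. Of the EphA calls, those of Epha7 and Epha10 were lost when single libraries were left out, as listed below. Epha6 (ENSMUSG00000055540, chromosome 16, 59653483 to 60605531), a receptor of ephrin-A ligands, was 532 to 742 (median 584) at P25 and 784 to 1102 (median 923) at P60 (log2 fold change 0.61, SE 0.096, adjusted p = 0.000265), and its P60 libraries all exceeded its P25 libraries. Epha10, which lacks kinase activity, was 1448 to 2130.2 (median 1909) at P25 and 1992 to 2300.2 (median 2272) at P60 (log2 fold change 0.25, SE 0.079, adjusted p = 0.0234), with 1 or more libraries overlapping. Epha7, which shapes cortical maps and dendrites, had a smaller increase, with a log2 fold change of 0.15 (adjusted p = 0.0378). Epha8 stood just outside the threshold at -0.24 (adjusted p = 0.0503). Epha4, the most abundant EphA receptor, was at 0.068 (adjusted p = 0.374), with values of 0.019 without P25-WT replicate 2 and 0.098 without P25-WT replicate 3, and Epha1, Epha2, Epha3 and Epha5 did not pass the test. With equal library totals Epha5 passed as well, at 0.16 (adjusted p = 0.0356).

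Ephb1 (ENSMUSG00000032537, chromosome 9, 101922128 to 102354693), a receptor of ephrin-B ligands known from retinal axons and from synapses, was 2085 to 2373 (median 2200.5) at P25 and 1266 to 1522 (median 1368) at P60 (log2 fold change -0.68, SE 0.056, adjusted p = 9.78e-07). Ephb6, another receptor without kinase activity, was 3588 to 4024 (median 3791) at P25 and 3009.9 to 3311 (median 3092) at P60 (log2 fold change -0.29, SE 0.041, adjusted p = 0.000117). Neither gene had a P60 library within its P25 range. Ephb2, Ephb3 and Ephb4 had log2 fold changes of -0.13 (adjusted p = 0.109), -0.12 (adjusted p = 0.348) and -0.13 (adjusted p = 0.303) and did not pass the test. Among the ligands, Efnb3 fell, with values of 3997 to 4304 (median 4236) at P25 and 3119 to 3788 (median 3353) at P60 (log2 fold change -0.30, SE 0.053, adjusted p = 0.000517), and Efna2, which patterns visual projections, fell, with values of 261 to 304 (median 289) at P25 and 197 to 252 (median 222) at P60 (log2 fold change -0.37, SE 0.081, adjusted p = 0.00271), both without overlap. The other 6 ephrins had log2 fold changes between -0.12 in Efna1 and 0.011 in Efnb1, and Efna3, the most abundant of the A type, was at -0.014 (adjusted p = 0.884), with -0.056 without P60-KO replicate 2 and 0.024 without P60-KO replicate 3. Efna4 had only 4.38 to 17.2 normalized counts.

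Of the 7 Slit and Robo genes 1 passed the test (14.3%, against 37.6% of all genes). Slit1, Slit2 and Slit3 had log2 fold changes of 0.031 (adjusted p = 0.785), 0.030 (adjusted p = 0.837) and 0.069 (adjusted p = 0.472), and Slit1 had 2626 to 3722 (median 3358) at P25 against 3002 to 3855 (median 3337) at P60. Its value was -0.041 without P25-WT replicate 2 and 0.070 without P25-WT replicate 1, so its sign rests on single libraries. Robo3, a divergent receptor known from commissural axons, was 978 to 1491 (median 1318) at P25 and 960.2 to 1141 (median 1019) at P60 (log2 fold change -0.29, SE 0.082, adjusted p = 0.0120), and 1 or more libraries overlapped. Robo1, Robo2 and Robo4, the last of which is endothelial, did not pass the test, at -0.053 (adjusted p = 0.595), 0.061 (adjusted p = 0.387) and -0.23 (adjusted p = 0.284). Robo2 was at 0.029 without P25-KO replicate 3 and at 0.094 without P25-KO replicate 2.

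In the netrin system, Ntn3 fell, with values of 427 to 525 (median 461) at P25 and 325 to 398 (median 352) at P60 (log2 fold change -0.38, SE 0.063, adjusted p = 0.000369) and Ntn1, the classic attractant, had a log2 fold change of -0.22 (adjusted p = 0.0198). Ntng2 (ENSMUSG00000035513, chromosome 2, 29194541 to 29253005), a lipid-anchored netrin-G that binds the synaptic adhesion protein Lrrc4, was 965 to 1226 (median 1167) at P25 and 816 to 923 (median 856) at P60 (log2 fold change -0.41, SE 0.057, adjusted p = 0.000115). Its relative Ntng1, the ligand of Lrrc4c, was at 0.074 (adjusted p = 0.288). Every P60 library of Ntn3 and Ntng2 lay below every P25 library. The Unc5 receptors went apart, since Unc5b, also a vascular receptor, fell, with values of 1383 to 1747 (median 1581) at P25 and 1099 to 1294 (median 1231) at P60 (log2 fold change -0.38, SE 0.062, adjusted p = 0.000351) and Unc5d, which binds Flrt2, rose, with values of 1379 to 1547 (median 1477) at P25 and 1451 to 1986 (median 1713) at P60 (log2 fold change 0.21, SE 0.066, adjusted p = 0.0193), the former without and the latter with overlap. Unc5a and Unc5c were at 0.11 (adjusted p = 0.130) and 0.13 (adjusted p = 0.138), and Dcc was at 0.017 (adjusted p = 0.861). Unc5a was at 0.059 without P25-WT replicate 2. After scaling to equal library totals Unc5a passed the test at 0.15 (adjusted p = 0.0455).

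Each of the 12 libraries was left out in turn, and 23 of the 29 calls were kept every time. The other 6 were small differences. Sema3e lost its call without P25-KO replicates 1 and 3, P60-KO replicate 3, P60-WT replicates 1 and 3 (highest adjusted p = 0.0797), and Epha10 without P25-KO replicate 3, P60-WT replicates 1 and 3 (0.0530). Epha7 lost it without P25-KO replicate 3, P25-WT replicates 1 and 3, P60-KO replicates 2 and 3, P60-WT replicates 2 and 3 (highest adjusted p = 0.0974), and Plxnd1 without P25-KO replicate 2, P25-WT replicates 1 and 3, P60-KO replicates 1 and 3, P60-WT replicates 2 and 3 (0.0776). Plxnb2 lost it without P25-KO replicates 1 and 3, P25-WT replicates 1 and 3, P60-KO replicates 2 and 3, P60-WT replicates 1 and 3 (highest adjusted p = 0.104), and Sema4c without P25-KO replicates 1, 2 and 3, P25-WT replicate 3, P60-KO replicates 1 and 2, P60-WT replicates 1, 2 and 3 (0.0995). With equal library totals Sema4c, Plxnd1, Plxnb2 and Ntn1 were not called, and with a constant prior variance Plxnd1, Plxnb2 and Epha7 were not called.

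Markers of several cell types moved with age in the same libraries, where 18.3% of all genes tested were higher and 19.3% lower. All 7 oligodendrocyte markers were lower at P60 (median log2 fold change -1.28), and their summed level was 393859 to 509587 at P25 and 192447 to 219851 at P60. All 5 genes listed for oligodendrocyte precursors (Pdgfra, Cspg4, Gpr17, Bmp4 and Enpp6) were lower (-0.77, 7918 to 9822 and 4503 to 5086). Within this list the decrease was uneven. In WT means Pdgfra went from 1967 to 1572 and Gpr17 from 4581 to 1999. These levels stand beside those of Sema4d, Sema6a and Plxnb3, and their part in the differences of these genes was not tested. Of 8 astrocyte markers 5 were lower (median -0.26, sums 112210.3 to 126371 and 94079.7 to 104471), and of 5 immature neuron markers 1 was higher and 4 were lower (-0.28, 13295 to 15461 and 11177 to 11895). Glutamatergic neuron markers counted 1 higher and 4 lower of 8 (52534 to 55309 and 44415 to 46142). GABA neuron markers counted 2 and 2 of 7 (29202 to 30866 and 28908 to 31399.9), and striatal projection neuron markers 0 and 1 of 7 (23654 to 27256 and 22224 to 23227).

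Blood genes were all lower (4 of 4, median -2.03, sums 20279 to 42593 and 5798 to 7183). Among vascular and other cells, 1 of 6 endothelial markers was higher (4324 to 5869 and 4263 to 7516), 2 of 4 mural markers were lower (3744 to 4951 and 2851 to 3693), 2 of 7 microglial markers were lower (6861 to 8825 and 6434 to 8380.2), and 3 of 5 choroid plexus markers were higher (10512 to 14328 and 12512 to 18373). The endothelial count lay near the share of all genes, 18.3% higher. None of 5 hindbrain and cerebellar markers tested and none of 3 olfactory bulb markers was called, with 1 and 0 at an unadjusted p under 0.05 (limma). In KO mice alone 1 of the 5 hindbrain and cerebellar markers was called higher at P60 (median log2 fold change 0.97). No listed marker in the table was at 0 in every library of a group, and Hoxa5 was not among the genes analysed. The part of these cell types in the guidance gene differences was not tested. Without P25-WT replicate 2 the choroid plexus count was 4 and the other counts of markers called, here and in the preceding paragraph, stayed as they were. Between KO and WT none of the markers was called at either age.

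**Figure D4:**
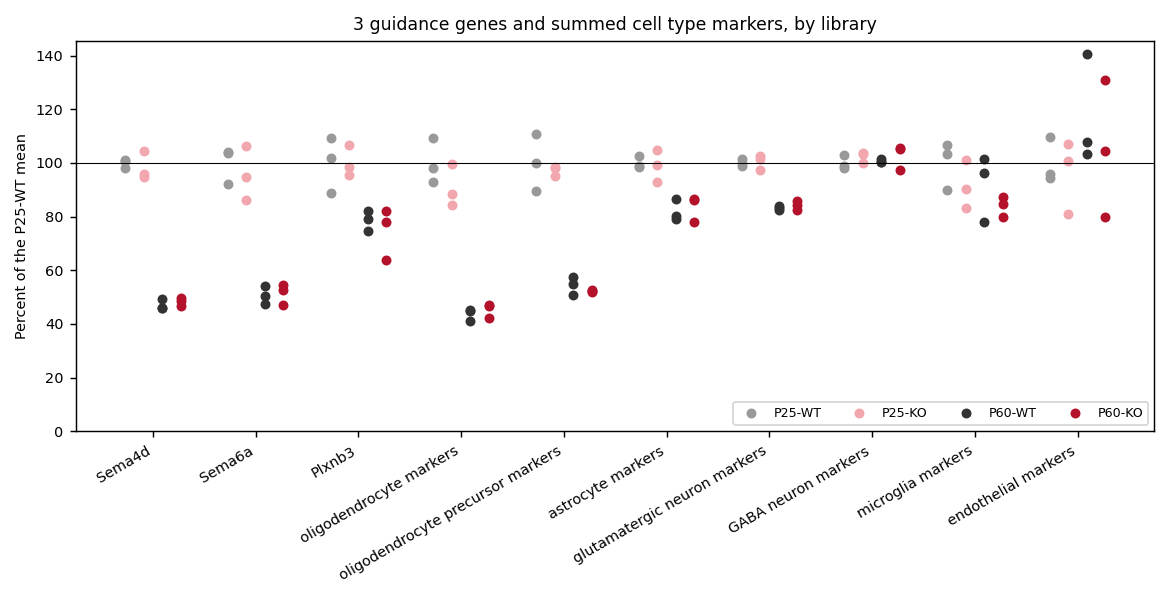
Values of Sema4d, Sema6a and Plxnb3 and summed levels of 7 marker lists in each library, as percent of the P25-WT mean (line at 100), with dots coloured by group. Sema4d, Sema6a and both oligodendrocyte lists drop to near 50% at P60, Plxnb3 drops less, and the GABA neuron sum stays near 100%.

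Genes that work with the guidance receptors were counted in the same way. Of 14 genes for binding partners of these proteins and for related receptors (Lrrc4, Lrrc4b, Lrrc4c, Flrt1, Flrt2, Flrt3, Gpc1, Draxin, Neo1, Rgma, Rgmb, L1cam, Adam10 and Lingo1), none was higher and 4 were lower at P60 (28.6%, against 19.3% of all genes; 7 without P25-WT replicate 2; median log2 fold change -0.079). These were Lingo1, a component of the Nogo receptor complex, at -0.26 (SE 0.039, adjusted p = 0.000170), Lrrc4b at -0.22 (SE 0.038, adjusted p = 0.000459), Gpc1, a proteoglycan that binds Slits, at -0.17 (SE 0.040, adjusted p = 0.00357), and Draxin, a secreted repellent that binds Dcc and netrin, at -0.65 (SE 0.16, adjusted p = 0.00562). Draxin was named after its value was seen. Of 50 cytoplasmic effectors 11 were higher (22%, against 18.3% of all genes) and 13 were lower (26%, against 19.3%), with a median of -0.0012. Without P25-WT replicate 2 the counts were 11 and 16. The leading decreases were Fyn, a Src-family kinase, at -0.55 (SE 0.038, adjusted p = 1.93e-07), Dpysl2, the collapsin response mediator that relays class 3 semaphorin signals, at -0.82 (SE 0.059, adjusted p = 3.05e-07), and Dpysl4 at -0.42 (SE 0.044, adjusted p = 1.01e-05). The leading increases were Rock2 at 0.40 (SE 0.067, adjusted p = 0.000368), Ablim1 at 0.34 (SE 0.063, adjusted p = 0.000770) and Arhgef12, an exchange factor bound by B-type plexins, at 0.20 (SE 0.043, adjusted p = 0.00211).

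Each genotype was then examined on its own. In WT mice, 2 members were higher at P60 (2.82% against 3.66% of all genes tested) and 7 were lower (9.86% against 4.99%), so that 12.7% were called against 8.65%. Plxnc1 and Epha6 were the higher ones. Sema4d, Sema6a, Sema6b, Ephb1, Ephb6, Efnb3 and Unc5b were the lower ones. In KO mice 5 were higher (7.04% against 9.37%) and 15 lower (21.1% against 11.3%), 28.2% in all against 20.7%. These comprised the same 9 genes, in the same direction, and 11 others, so the overlap was 100% of the WT calls and 45.0% of the KO calls. Over the 17359 genes tested in both genotypes it was 84.6% and 35.3%. The genotypes share no library in these comparisons, and 57 of the 71 members had the same sign in both (53 of the 70 tested without P25-WT replicate 2). This was 80.3% of the members and 81.3% of all genes.

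Values per library follow for 1 gene of each direction. Sema4d was 4909.7, 4757 and 4885 in P25-WT and 2391, 2234 and 2234 in P60-WT, and 4642, 4594 and 5059 in P25-KO and 2362, 2408 and 2267 in P60-KO. Its log2 fold change with age was -1.09 (SE 0.069, adjusted p = 0.000131) in WT and -1.02 (SE 0.058, adjusted p = 1.19e-05) in KO. No library of one age reached the values of the other in either genotype. Epha6 was 742, 538 and 712 in P25-WT and 925, 921 and 1068 in P60-WT, and 611, 557 and 532 in P25-KO and 823, 784 and 1102 in P60-KO. Its log2 fold change was 0.56 (SE 0.13, adjusted p = 0.0386) in WT and 0.66 (SE 0.12, adjusted p = 0.00583) in KO. Here too all adult libraries were above all juvenile ones, and P60-KO replicate 3 was the highest.

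The count in WT rested on single libraries. It fell to 3 lower members without P60-WT replicate 3 and to 4 without P25-WT replicates 1 or 3 or P60-WT replicates 1 or 2, and it rose to 15 without P25-WT replicate 2. The higher members numbered 0 without P60-WT replicates 1 or 3, 1 without P25-WT replicate 1 or P60-WT replicate 2, and 3 without P25-WT replicates 2 or 3. Sema4d, Sema6a and Ephb1 were called in WT under every setting tried. In KO mice the lower count stayed between 11 and 13, and the higher count was 2 without P25-KO replicates 1 or 3 or P60-KO replicates 1 or 3. The 8 KO calls kept under every setting were Sema4b, Sema4d, Sema6a, Sema6b, Epha6, Ephb1, Ntn3 and Ntng2. With equal library totals the split was 2 higher and 4 lower in WT, where all genes counted 991 higher and 681 lower. In KO it was 6 higher and 13 lower, where all genes counted 2108 and 1620. Although more genes were called in KO than in WT, the difference between the genotypes was itself not called in any member, as given below with the interaction.

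The second question was whether the loss of Shank3 altered the guidance genes at either age. At P25 no member was called (0 of 71, limma, against 0.00571% of all genes tested). None had an unadjusted p under 0.05, against 238 of 17515 genes, and the lowest adjusted p of a member was 0.99996. The only gene called was Shank3 itself, while the count test of the study also called genes such as Yy2 and Fancm. The median absolute log2 fold change of the members was 0.048, compared with 0.13 for age. The KO and WT libraries did not overlap in 3 members, 4.23%, against 4.76% of all genes. The 95% interval of the difference lay within 0.5 log2 units of 0 in 65 of the 71 members, the others being Epha1, Epha6, Efna1, Efna4, Robo4 and Ntn5.

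Of the members with the smallest p at P25, Ntn3 had 468, 481 and 525 in KO and 427, 453 and 440.0 in WT (log2 fold change 0.16, SE 0.095, unadjusted p = 0.136). The KO values were all above the WT values, but the gap between the groups was small. Robo4 had 239, 293 and 295 against 225, 195 and 284 (log2 fold change 0.24, SE 0.16, unadjusted p = 0.171), and Sema4a had 1654, 1852 and 1627 against 1567, 1283 and 1741 (log2 fold change 0.17, SE 0.12, unadjusted p = 0.183). In Sema4a the lowest value, P25-WT replicate 2, was below all other libraries of that age. Without it the log2 fold change was 0.048, and without P25-WT replicate 3 0.27, while that of Robo4 was 0.12 and 0.38. On the lower side, Efna1 had 82.3, 89.4 and 104 against 102, 146 and 111 (log2 fold change -0.37, SE 0.18, unadjusted p = 0.0765), Epha6 had a log2 fold change of -0.22 (SE 0.13, unadjusted p = 0.140), and Epha1 had 14.5, 18.2 and 17.4 against 18.7, 18.5 and 30.8 (log2 fold change -0.38, SE 0.31, unadjusted p = 0.241). Epha1 is a low gene, at 9.45 to 30.8 normalized counts over the 12 libraries, and its groups did not overlap. These values too moved with single libraries. Without P25-WT replicate 2 they were -0.21 for Efna1, -0.36 for Epha6 and -0.50 for Epha1. Efna1 was at -0.47 and Epha6 at -0.13 without P25-WT replicate 1, and Epha1 was at -0.15 without P25-WT replicate 3. The other member without overlap was Epha3, with 247, 264 and 256 against 244, 224 and 221.

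At P60, 70 members had a mean of at least 10 and were tested, Efna4 being left out. None was called (0 of 70, limma, against 0.00568% of all genes, again Shank3 alone), and 2 had an unadjusted p under 0.05, against 440 of 17610 genes. The lowest adjusted p was 0.99952. Plxnd1, the receptor of Sema3e, had 3846, 4119 and 3889 in KO and 3591, 3435 and 3260.0 in WT (log2 fold change 0.21, SE 0.055, unadjusted p = 0.00429). Ntn1 had 399, 412 and 389 and 490.5, 491 and 435 (log2 fold change -0.24, SE 0.086, unadjusted p = 0.0218). These 2 were also the only members without overlap, 2.86% against 7.79% of all genes, and neither passed the adjustment. At P25 the log2 fold changes of Plxnd1 and Ntn1 were 0.041 and -0.087, with overlapping libraries.

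On the higher side, the next smallest p-values at P60 belonged to Robo3, with 1141, 968 and 1099 against 975, 960.2 and 1062 (log2 fold change 0.096, SE 0.080, unadjusted p = 0.261), and Plxna1, with 5916, 5078 and 5538 against 5528, 4608 and 5536 (log2 fold change 0.079, SE 0.082, unadjusted p = 0.359). Without P60-WT replicate 2, its lowest library, the log2 fold change of Plxna1 was -0.0086. On the lower side they were smaller, as Ephb4 had 156, 173 and 209.6 against 198, 205 and 224 (log2 fold change -0.23, SE 0.14, unadjusted p = 0.124) and Slit2 had 1104, 1412 and 1219 against 1643, 1448 and 1191 (log2 fold change -0.19, SE 0.12, unadjusted p = 0.155). The groups overlapped in all 4 of these genes. Left-out libraries moved Slit2 to -0.32 (without P60-WT replicate 3) or -0.084 (without P60-WT replicate 1). Ephb4 moved to -0.35 (without P60-KO replicate 3) or -0.13 (without P60-KO replicate 1), and Robo3 to 0.047 (without P60-KO replicate 1) or 0.17 (without P60-KO replicate 2). The 95% interval lay within 0.5 log2 units of 0 in 63 of the 70 members, and it was wider in Sema3b, Epha1, Epha2, Ephb4, Efna1, Robo4 and Ntn5. The 14 partner and related genes and the 50 effectors also held no call at P25 or at P60, with 0 and 1 at an unadjusted p under 0.05 at P25 and 0 of either at P60 (limma). These comparisons use the same libraries as those of age.

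**Figure D5:**
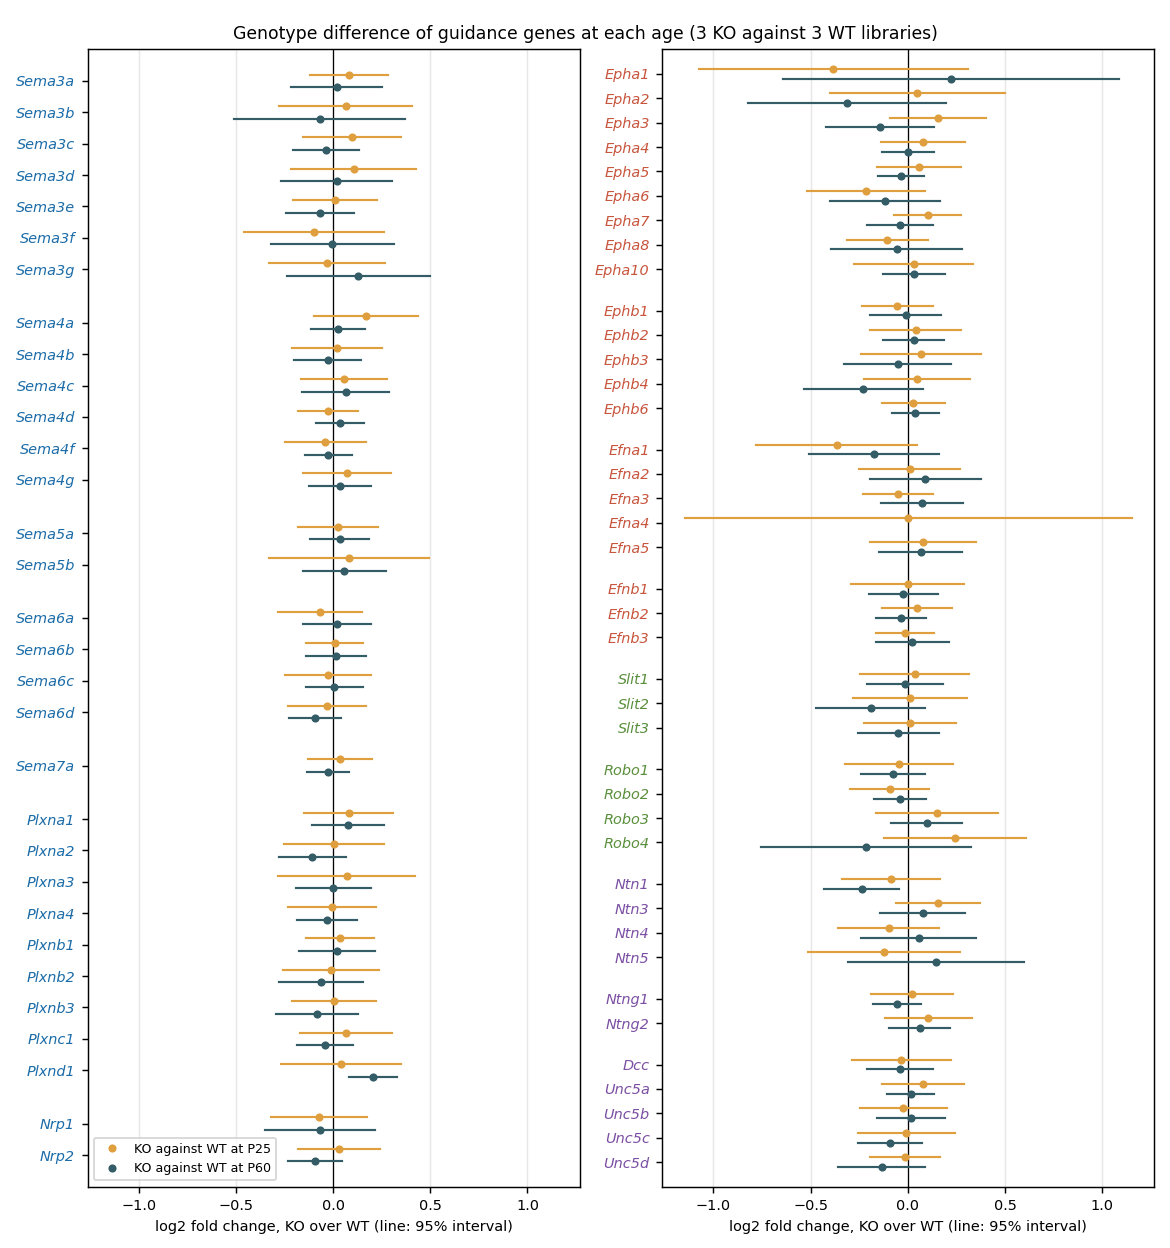
Log2 fold change of KO over WT for each guidance gene at P25 (orange) and P60 (dark), 3 against 3 libraries, with lines for the 95% interval of the difference. The points stay near 0, and at P60 the intervals of Plxnd1 and Ntn1 leave out 0, though neither passed the adjustment over all genes.

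The age difference was compared between the genotypes by the genotype by age interaction over all 12 libraries. No member was called (0% of all genes tested were), and none had an unadjusted p under 0.05, against 288 of 17594 genes (limma, lowest adjusted p of a member 0.99996). The smallest p belonged to Epha3, a receptor of ephrin-A ligands, at log2 fold change -0.30, SE 0.16, unadjusted p = 0.0859. Its values were 244, 224 and 221 in P25-WT, 247, 264 and 256 in P25-KO, 281, 265 and 222 in P60-WT and 211, 235 and 247 in P60-KO. The KO libraries were above WT at P25, and at P60 the groups overlapped. Ephb4 followed, at log2 fold change -0.28, SE 0.18, unadjusted p = 0.144, and its value was -0.18 without P60-KO replicate 1 and -0.39 without P60-KO replicate 3. The median absolute interaction was 0.076 log2 units, and the 95% interval lay within 0.5 of 0 in 53 of the 71 members. A genotype effect on the age difference of that size was therefore within the interval of the other 18, which include Epha6 and Plxnd1.

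Several members lie side by side in the genome, in GRCm38 coordinates. Robo4 (chromosome 9, 37401897 to 37415115, plus strand) and Robo3 (37415669 to 37433246, minus strand) converge and are separated by 0.553 kb. With age their log2 fold changes were -0.23 (adjusted p = 0.284) and -0.29 (adjusted p = 0.0120). Efna1, Efna3 and Efna4 lie within a short stretch of chromosome 3, with gaps of 32.8 and 10.4 kb, and none of them was called. Sema3b and Sema3f are 72.3 kb apart on chromosome 9, likewise without a call. Epha8 and Ephb2 lie 93.4 kb apart on chromosome 4, at -0.24 (adjusted p = 0.0503) and -0.13 (adjusted p = 0.109).

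The transcripts of some members share sequence with other genes. In 64 of the 71, at most 5% of the 31-base words of the transcripts occurred in a transcript of another gene on either strand. Ntng2 shared 11.5% with other transcripts of the same strand, led by 6530402F18Rik, and Epha1 shared 5.24%. With the opposite strand Ntn5 shared 20.5%, Efna3 10.5%, Efna4 8.80%, Plxna1 8.57% and Sema4c 6.45%. The library kit does not mark strand, so sharing with the opposite strand can also bear on the values. The values of these 7 genes are uncertain. These are shares of words, not of reads, and how many reads they concern was not tested.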

How the data were processed

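RNA-seq of mouse forebrain was analysed in 12 libraries, grouped by sample title. According to the methods and labels, the authors used Salmon 1.1.0, corrected for GC bias, to estimate transcript abundance (GRCm38). The authors summed these to genes with tximport and scaled them in DESeq2, version 1.26.0 under R 3.6.2 per the submitters' processing notes (the methods name other versions). The deposited values are of the unit signal, namely estimated counts divided by gene- and library-specific factors. They are not whole reads, so the count test of the study could not be run, depth is unknown, and 3 libraries per group limit the precision. The reference transcriptome is not given in the sources used here. The smallest sum over libraries was 51.1.

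Symbols, positions and lengths came from GENCODE M21 (19252 of 19268 identifiers found), start-site sequences from RefSeq. Members and lists were chosen with earlier results of these data known. Tests used the R package limma, version 3.58.1 under R 4.3.3 (lmFit, then eBayes, prior variance following the mean level), on log2(value + 1), which understates the changes of low genes, for genes with a mean of at least 10 in the fit, two-sided, with Benjamini-Hochberg adjustment over all genes. The procedure was tried on simulated data with planted changes. Its recovery of such changes is not reported here, so no power of the genotype tests is given. Marker, partner and effector lists were written from general knowledge.

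The members given with library values were the 6 per direction with the smallest adjusted p with age, the first called of each family and direction, the 3 per direction with the smallest p for genotype at each age, the 2 smallest of the interaction, and the highest per length of each family. Partner and effector lists were named by their 3 first genes per direction. Others were named after their values were seen. Shared reads were sought as 31-base words. The alternatives were a pseudocount of 5, no minimum mean, equal library totals, a constant prior variance, other sets of libraries and another gene length. A further one added the replicate number as a block. The labels give no batch.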

Additional observations from a re-analysis of the deposited data

How the results depend on the processing

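No member was called for genotype or for the interaction under any setting tried, each left-out library and the replicate block included. For age over both genotypes the counts were 9 higher and 20 lower. They ranged from 6 to 10 and from 17 to 24 when 1 library was left out, and equal library totals gave 14 higher. In WT (2 higher, 7 lower) leaving out 1 library gave 0 to 3 and 3 to 15, equal totals gave 4 lower, a constant prior variance gave 0 higher and 4 lower, and 1 fit of all 12 libraries gave 4 higher and 13 lower. In KO (5 higher, 15 lower) leaving out 1 library gave 2 to 5 and 11 to 13, a constant prior variance gave 1 higher and 7 lower, and 1 fit of all 12 libraries gave 2 higher. The cause of these shifts was not tested. Same-numbered libraries did not deviate together (Pearson r of their deviations from the group means from -0.072 to 0.17, and over 0.1 for all 3 numbers in no pair of groups), so the numbers do not pair the libraries. With the replicate number as a block the age counts were 10 higher and 21 lower over both genotypes, 2 and 6 in WT, and 3 and 13 in KO. The sign of uncalled genes could turn, as in Efna3 (-0.056 to 0.024 over the left-out libraries, 0.029 with equal totals), in Slit1 (-0.041 to 0.070) and in Plxna1 for genotype at P60 (-0.0086 to 0.14). A pseudocount of 5 and no filter on low values left all counts within 1.5 times. Depth is unknown, so no detection limit can be given for low members such as Epha1 and Efna4.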
